A study of Mus musculus with 96 samples.

Results

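Granins and the enzymes that cut and finish neuropeptides were followed here in single neurons of the mouse lateral superior olive (LSO), a brainstem nucleus that compares the sound level at both ears. The 10 genes, chosen by name from the 38887 genes of the expression table, were the granins Vgf, Scg2, Scg3, Scg5, Chga and Chgb, the prohormone convertases Pcsk1 and Pcsk2, carboxypeptidase E (Cpe) and the amidating enzyme Pam. All 10 were found by their Ensembl identifier. Granins are acidic proteins that aggregate in the Golgi apparatus, help to form dense core vesicles and are themselves cut into peptides. Within these vesicles PCSK1 and PCSK2 cleave a precursor at paired basic residues, CPE trims the basic residues left at the end, and PAM turns a terminal glycine into an amide, a step that calcitonin gene-related peptide (CGRP) and urocortin need for their mature form. Neurons that release peptides are known to use this chain, but which of its genes a given neuron holds differs between neuron types.

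The cytoplasm of each neuron was aspirated through the patch pipette after recording in acute slices of juvenile C57BL/6J mice of both sexes around hearing onset, none of them treated or genetically altered, and its RNA was made into 1 library by a modified form of Smart-seq2. The labels name 3 firing patterns. Onset and Sustained neurons are the principal LSO neurons (pLSOs), which project to higher auditory centers, and Delayed neurons are the lateral olivocochlear neurons (LOCs), which project to the cochlea. After 8 of 96 libraries were left out as set by the rule for these genes, 41 Onset and 11 Sustained neurons (52 pLSOs), 28 LOCs and 8 negative controls remained, the latter made from pipettes that had touched the slice and were withdrawn. The left-out libraries were set by name with the values of these data known. For pLSOs against LOCs, counts with all libraries by label are given as an alternative.

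Values are TPM, transcript levels that add up to the same total in every library, which the authors rounded to whole numbers, and a gene was called detected at 1 TPM or more. Neurons held 1175 to 6276 detected genes, with a median of 2560.5 in pLSOs and 2394 in LOCs, and negative controls held 285 to 1271. The files hold no read counts, but the smallest steps between values gave an estimate of the reads behind them, with a median of 1029490 per pLSO, 793501 per LOC and 35486 per control. The same steps showed that a TPM of 1 stands for unlike read numbers in different genes. In a median neuron 1 read of Chga or Pcsk1 was worth about 1.72 TPM, whereas fewer than about 5.31 reads of Vgf or 9.96 reads of Scg2 were rounded to 0. Levels are therefore compared within a gene, and between genes only after rescaling to each gene's own exonic length. The labels name no animals, so each class counts as 1 sample. No test between the classes was possible, SDs describe the spread over neurons, and confidence intervals (exact Clopper-Pearson, 95%) cover counting error only. For a share of 0, the limit given is 3 libraries over the number in the group, which also covers counting error only. Recording day and animal are not among the labels and cannot be told apart from the classes.

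Labels were checked against markers. All 5 pLSO markers tested (Spp1, Lpgat1, Tenm2, Igsf3, Kcnh7) were higher in pLSOs and all 6 LOC markers (Calca, Ucn, Isl1, Col4a3, Nxph1, Chat) were higher in LOCs, each by 2-fold or more. Most of these markers were picked in the study from the same neurons, so their direction is no independent check of the labels. Chat, which makes acetylcholine and defines cholinergic neurons, was detected in 5 of 28 LOCs and 0 of 52 pLSOs. Of the 28 LOCs, 26 held 3 to 6 of the 6 LOC markers. The other 2, cell_57 and cell_76, held 1 each, Nxph1 at 23 and 20 TPM, with Calca at 0 TPM, and 1 of 5 pLSO markers each. Both libraries were of usual depth, with 3264 and 3111 detected genes. They match neither marker set and stand apart from their label, so results that rest on them are given with and without them. Transcripts of oligodendrocytes were in all groups. Mbp was at 1 TPM or more in 8 of 8 controls, and the summed level of 5 oligodendrocyte markers ran from 0 to 12000 TPM (median 274) in pLSOs, from 1 to 23255 TPM (median 884) in LOCs and from 54 to 41384 TPM (median 2010) in controls. The sum adds TPM that were not rescaled, and Cnp had the highest mean of the 5 markers in each group. Its mean was 1516 TPM in pLSOs, 1964 TPM in LOCs and 9901 TPM in controls, so the sum largely follows this gene. Differences of the 10 genes were also computed in the neurons with a summed level under the median, and such a value is given where it ends a difference of 2-fold.

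Of the 10 genes, 2 (Chga, Pcsk2) were higher in pLSOs by 2-fold or more on the scale of mean log2(TPM + 1), 2 (Pam, Vgf) were higher in LOCs, and 6 differed by less. Among all 10319 genes that were detected in 5% of neurons or more, 6.99% were higher in pLSOs and 4.68% in LOCs by the same measure. The median difference of the 10 genes, pLSO minus LOC, was -0.23, against 0.07 over all genes tested. The genes thus did not lie on one side. Without cell_57 and cell_76, Chgb joined the genes higher in pLSOs and Pcsk1 those higher in LOCs, which made 3 in each direction. Of all genes tested, 7.83% were then higher in pLSOs and 4.73% in LOCs.

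**Figure D1:**
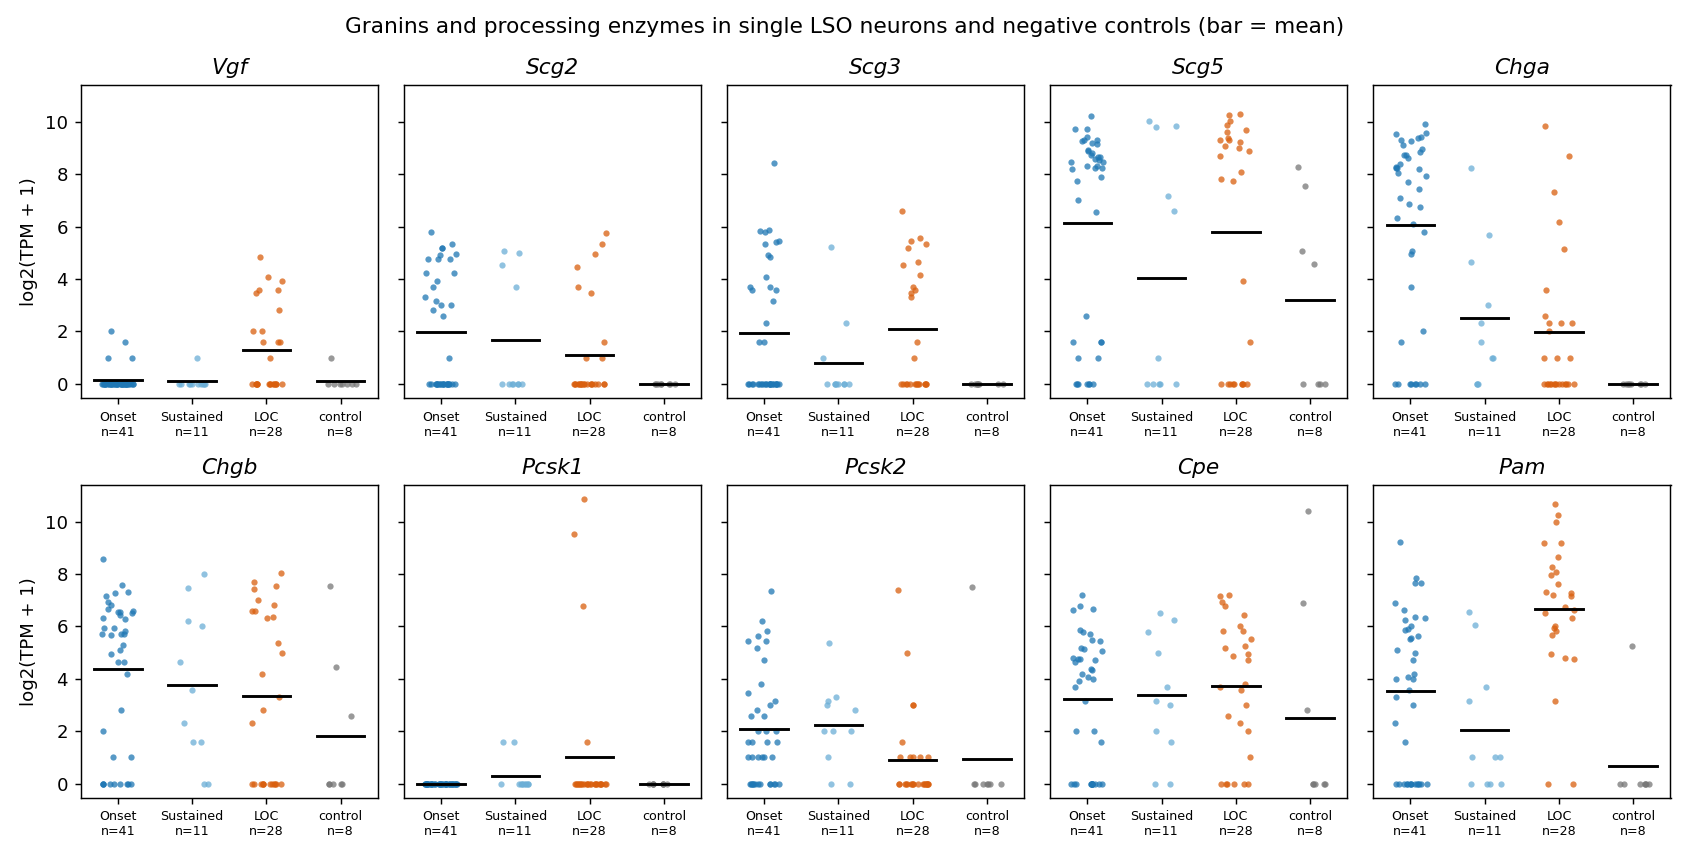
Level of each gene in every library, as log2(TPM + 1) on the vertical axis, for 41 Onset neurons, 11 Sustained neurons, 28 LOCs and 8 negative controls, with 1 point per library and a bar at the group mean. Most genes split into libraries at 0 and libraries well above it; Pam is above 0 in 26 of 28 LOCs, and Chga is at 0 in all 8 controls.

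Pam showed the difference of largest size among the 10 genes on the scale of mean log2(TPM + 1). After rescaling to own exonic length, Chga showed the largest (3.27, against -2.88 for Pam). Pam encodes the peptidylglycine alpha-amidating monooxygenase (chromosome 1, 97795114 to 98095646, minus strand, GRCm38). In LOCs its level ran from 0 to 1626 TPM with a median of 125 TPM, and 26 of 28 LOCs held it (92.9%, 95% interval 76.5 to 99.1%). In pLSOs it ran from 0 to 602 TPM with a median of 10 TPM, and 34 of 52 held it (65.4%, 50.9 to 78.0%). Of the controls, 1 of 8 held Pam, at 37 TPM. The left-out controls NC5 and NC6 held Pam at 440 and 18 TPM, the first above the median of LOCs. The classes overlap in range, but the upper quartile of pLSOs (58.3 TPM) lay close to the lower quartile of LOCs (53.8 TPM). On the scale of mean log2(TPM + 1) pLSOs minus LOCs gave -3.44, a 10.9-fold higher level in LOCs on that scale, and the SD over neurons was 2.89 in pLSOs and 2.58 in LOCs. The 2 LOCs without Pam were cell_57 and cell_76. Without them the 26 remaining LOCs all held Pam, at 8 to 1626 TPM, and the difference was -3.95. When 5 or more estimated reads were required, 29 of 52 pLSOs and 26 of 28 LOCs kept the gene.

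Chga, which encodes chromogranin A (chromosome 12, 102554969 to 102565028, plus strand), lay on the other side. In pLSOs its level ran from 0 to 971 TPM with a median of 93.5 TPM, and in LOCs from 0 to 927 TPM with a median of 0.5 TPM. All 8 controls were at 0 TPM, and the left-out control NC6 was at 289 TPM. Chga was detected in 41 of 52 pLSOs (78.8%, 65.3 to 88.9%) and 14 of 28 LOCs (50.0%, 30.6 to 69.4%). Most of the LOC detections were faint. With 5 or more estimated reads required, Chga was left in 5 LOCs (17.9%, 6.06 to 36.9%) and in 35 pLSOs (67.3%, 52.9 to 79.7%). The difference of mean log2(TPM + 1) was 3.33, a 10.0-fold higher level in pLSOs, and 3.59 without cell_57 and cell_76. The highest LOC, at 927 TPM, was cell_76, and without both libraries the mean of LOCs was 27.4 in place of 58.6 TPM.

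Chgb (chromogranin B), like Chga a granin that binds calcium, was more evenly spread. It was detected in 41 of 52 pLSOs and 16 of 28 LOCs, with medians of 44 and 7.5 TPM and highest values of 378 and 261 TPM. Of the controls, 3 of 8 held it, at 5, 21 and 186 TPM, none with 5 or more estimated reads. The difference was 0.92, under 2-fold, and 1.22 without cell_57 and cell_76. At least 1 of both chromogranins was detected in 50 of 52 pLSOs (96.2%, 86.8 to 99.5%) and in 20 of 28 LOCs (71.4%, 51.3 to 86.8%), and both were detected in 32 pLSOs and 10 LOCs.

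Vgf, whose product is cut into several secreted peptides (chromosome 5, 137026392 to 137033351, plus strand), was sparse in both classes but more frequent in LOCs. It was detected in 13 of 28 LOCs (46.4%, 27.5 to 66.1%) at 1 to 28 TPM, and in 5 of 52 pLSOs (9.62%, 3.20 to 21.0%) at 1 to 3 TPM. One control of 8 held it at 1 TPM. All 13 LOCs and all 5 pLSOs with Vgf held it with 5 or more estimated reads, since fewer reads of this gene are rounded to 0 TPM. The difference was -1.16, a 2.24-fold higher level in LOCs, and the ratio of the arithmetic means, 3.89 over 0.15 TPM, was 25.3, a measure by which 21.9% of all genes tested were higher in LOCs by 2-fold or more. The difference of Vgf was under 2-fold with all 86 neurons by label (-0.95), in neurons with at least 2000 detected genes (-0.98) and with a pseudocount of 10 (-0.34). At 10 TPM or more, Vgf was left in 21.4% of LOCs and 0% of pLSOs. Chga without Vgf was found in 37 of 52 pLSOs and 9 of 28 LOCs, and Vgf without Chga in 1 pLSO and 8 LOCs.

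The other granins differed less. Scg2 (secretogranin II, the source of secretoneurin) was detected in 24 of 52 pLSOs and 9 of 28 LOCs, up to 54 and 53 TPM, with a difference of 0.79. Scg3, which anchors chromogranin A to the vesicle membrane, was detected in 21 pLSOs and 14 LOCs, up to 345 and 97 TPM, with a difference of -0.39. Both were at 0 TPM in all 8 controls, which allows a share of up to 37.5% of such libraries. Scg5, the chaperone 7B2 of the PCSK2 proenzyme, had the highest TPM of the granins. Its medians were 295.5 TPM (pLSOs) and 342 TPM (LOCs), with 40 of 52 and 19 of 28 neurons at 1 TPM or more, and the difference was -0.08. It was also at 1 TPM or more in 4 of 8 controls, up to 309 TPM, of which 1 had 5 or more estimated reads.

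Both convertases were unlike in how they were spread. Pcsk2 (chromosome 2, 143546156 to 143816285, plus strand) was detected in 37 of 52 pLSOs (71.2%, 56.9 to 82.9%) and 10 of 28 LOCs (35.7%, 18.6 to 55.9%), with medians of 2.5 and 0 TPM. Most detections were low, and at 10 TPM or more Pcsk2 was left in 21.2% of pLSOs and 7.14% of LOCs. The difference was 1.23, a 2.34-fold higher level in pLSOs, and 1.63 without cell_57 and cell_76. Those 2 libraries held the 2 highest values of the LOCs, 167 and 31 TPM, and the 26 others did not exceed 7 TPM. Without both, the mean of LOCs was 0.808 in place of 7.82 TPM, against 12.3 TPM in pLSOs. One control of 8 held Pcsk2 at 183 TPM, above all pLSOs. In the neurons with a summed oligodendrocyte marker level under the median, 29 pLSOs and 11 LOCs, the difference was 0.70 and thus under 2-fold. Scg5 and Pcsk2, chaperone and client, were detected together in 28 of 52 pLSOs and 9 of 28 LOCs.

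Pcsk1 (chromosome 13, 75089826 to 75134861, plus strand) was seldom detected in pLSOs, with 0 of 41 Onset neurons, which allows a share of up to 7.32%, and 2 of 11 Sustained neurons, each at 2 TPM and under 5 estimated reads. Of the LOCs, 4 of 28 held it (14.3%, 4.03 to 32.7%). Their levels were 1870 TPM in cell_86, 736 TPM in cell_70, 109 TPM in cell_66 and 2 TPM in cell_74, or about 1052, 199, 36.3 and 1.04 estimated reads. All 8 controls were at 0 TPM. Pcsk1 was thus well above its single-read level in 3 LOCs, and 24 LOCs were at 0 TPM. The difference was -0.97, and -1.05 without cell_57 and cell_76, and the mean of LOCs dropped from 97.0 to 31.4 TPM without the highest neuron. Neither convertase was detected in 14 of 52 pLSOs (26.9%) and 16 of 28 LOCs (57.1%).

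Cpe was at similar levels in both classes. Its medians were 14.5 TPM in 52 pLSOs and 19 TPM in 28 LOCs, the highest values 148 and 147 TPM, and it was detected in 37 pLSOs and 22 LOCs, with a difference of -0.49. Of the controls, 3 of 8 held it, at 6, 119 and 1352 TPM, the last above every neuron. Rescaled to the own exonic length of each gene, Scg5, Cpe, Scg2 and Chgb had the highest mean levels over the 80 neurons, at 709, 444, 261 and 236 TPM, and Vgf, Pcsk2 and Pcsk1 the lowest, at 16.3, 13.8 and 10.8 TPM. On this scale the mean of Pam was 20.9 TPM for pLSOs against 109 TPM for LOCs, and that of Chga 186 against 51.7 TPM.

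**Figure D2:**
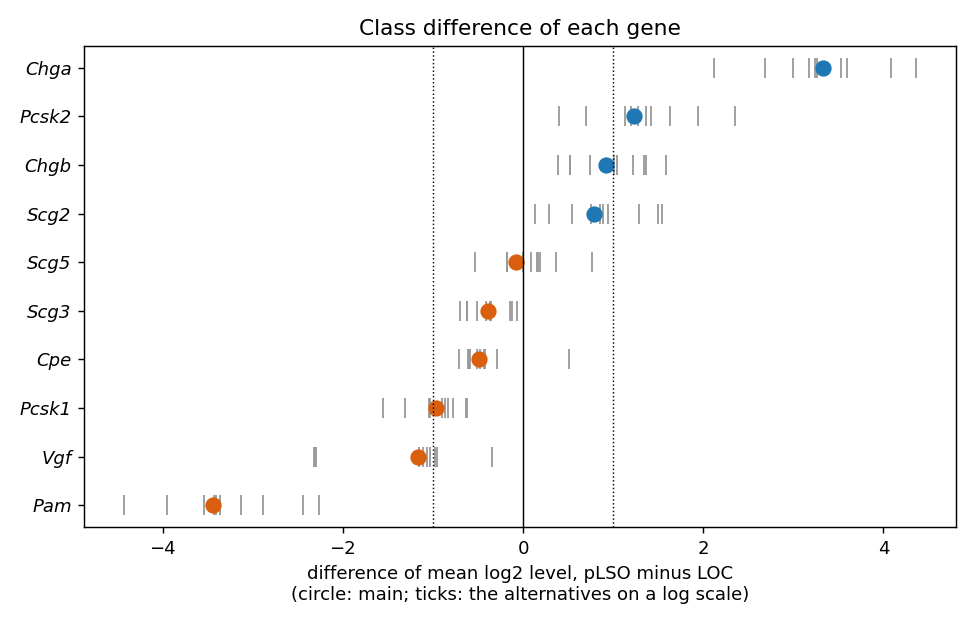
Difference of the mean log2 level between pLSOs and LOCs for each gene, with a circle for the value on log2(TPM + 1), ticks for the alternatives computed on a log scale, and dotted lines at 2-fold. Chga (3.33) and Pam (-3.44) stay beyond the dotted lines at every tick; Pcsk2, Chgb, Scg2, Pcsk1 and Vgf have ticks on both sides of a dotted line, and Scg5 and Cpe have ticks on both sides of 0.

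Within the pLSOs, 4 of the 10 genes were higher in Onset than in Sustained neurons by 2-fold or more and 0 were higher in Sustained neurons, where 4.78% and 10.3% of all genes tested were past 2-fold in these directions. The 4 were Chga, Scg5, Pam and Scg3. Chga had a median of 210 TPM in Onset neurons, with a highest value of 971 TPM, and a median of 2 TPM in Sustained neurons, with a highest value of 304 TPM. The difference of mean log2(TPM + 1), Onset minus Sustained, was 3.56. In Scg5 the medians were 314 and 1 TPM and the difference 2.11, in Pam 15 and 1 TPM and 1.47, and in Scg3 both medians were 0 TPM and the difference was 1.16. The ranges of both firing patterns overlapped in each of these genes. This comparison was not computed with the left-out libraries. Among those, the Sustained cell_54 held Pam at 223 TPM, above the highest Sustained neuron used (93 TPM). Pam was at 0 TPM in the Onset neurons cell_36, cell_39 and cell_40. Chga, Scg5 and Scg3 were at 0 TPM in cell_54. The Sustained group holds 11 neurons only, and its Chga level is closer to that of the LOCs (median 0.5 TPM) than to that of the Onset neurons. Other markers differed between the firing patterns too. The median of the summed level was 917 TPM in Sustained against 305 TPM in Onset neurons for 6 astrocyte markers, 145 against 1 TPM for 5 microglia markers and 223 against 620 TPM for 5 pLSO markers. These sums were not rescaled. Of the astrocyte markers, Aldoc had the highest mean in both firing patterns, at 1598 TPM in Sustained and 1118 TPM in Onset neurons. Of the microglia markers, 3 of 5 were higher in Sustained neurons by 2-fold or more, and of the pLSO markers 2 of 5 (Lpgat1, 2.70, and Spp1, 1.36) were higher in Onset neurons. Their part in the difference was not tested.

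The genes were also read per neuron. The number of the 10 genes detected had a median of 5.5 (2 to 8) in pLSOs, 5 (1 to 10) in LOCs and 1.5 (1 to 3) in controls. Pam and Cpe together were detected in 22 of 52 pLSOs (42.3%, 28.7 to 56.8%) and 20 of 28 LOCs (71.4%, 51.3 to 86.8%). A set of Pam, Cpe and at least 1 convertase was detected in 18 pLSOs (34.6%) and 9 LOCs (32.1%). In each class, at least 1 step of the chain was thus not detected in most neurons. This does not show that the step was absent. In a median neuron, fewer than about 5.49 reads of Cpe were rounded to 0 TPM. The paper also warns that mRNA is captured only in part, which leaves false-negative results.

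Peptide precursors, the cargo of these enzymes, were set beside them. Of 18 precursors, 11 were detected in at least 5% of neurons. Of these, 4 were higher in LOCs (Calca, Ucn, Calcb, Uts2b, with differences of -8.63, -3.92, -3.45 and -2.38) and 1 in pLSOs (Cck, 2.43). Of all genes tested, 4.68% were higher in LOCs and 6.99% in pLSOs by 2-fold or more. Calca and Calcb encode CGRP peptides, Ucn urocortin, Uts2b a urotensin II-like peptide and Cck cholecystokinin. Calca was detected in 26 of 28 LOCs, and all 26 also held Pam, while 20 held Calca, Pam and Cpe and 9 held these with a convertase (32.1%, 15.9 to 52.4%). Ucn was detected in 23 LOCs, 0 of 52 pLSOs and 2 of 8 controls, and all 23 LOCs also held Pam. Pam was in all 26 LOCs other than cell_57 and cell_76, which held neither Calca nor Ucn. Any gene not detected in those 2 LOCs would thus show the same full overlap with Pam in LOCs. Vgf was detected together with Ucn in 11 LOCs. Among the pLSOs, 28 of 52 held Cck, of which 26 also held Chga, 18 Pcsk2 and 16 Pam, and 9 held Cck, Pam, Cpe and a convertase (17.3%, 8.23 to 30.3%). Cck was at 0 TPM in all 28 LOCs, which allows a share of up to 10.7%. Calca was also detected in 15 pLSOs and 5 of 8 controls, at means of 2.60 and 51.9 TPM against 1174 TPM in LOCs.

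The pathway was completed by further lists. Of 19 other processing genes, 13 were detected in at least 5% of neurons, with 2 higher in LOCs and 0 in pLSOs by 2-fold or more. Of all genes tested, 4.68% and 6.99% were past 2-fold in these directions. Qpct, the glutaminyl cyclase that caps peptides with pyroglutamate, was detected in 12 of 28 LOCs at a class mean of 193 TPM and in 4 of 52 pLSOs at a mean of 0.154 TPM, with a difference of -3.32. Cpd, a carboxypeptidase of the Golgi network, was detected in 8 LOCs and 10 pLSOs, with a difference of -1.07. Pcsk1n, whose product proSAAS inhibits PCSK1, was detected in 24 of 28 LOCs and 41 of 52 pLSOs, with a difference of -0.20. The convertase inhibitor was thus widely detected in both classes, unlike Pcsk1 itself.

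Of 25 genes of dense core vesicles, 20 were detected in at least 5% of neurons. Of these, 4 were higher in LOCs and 0 in pLSOs, against 4.68% and 6.99% of all genes tested. They were Rab3b, a small GTPase of secretory vesicles, with a difference of -6.85, Cadps2 with -3.84, Cadps with -1.85 and Ptprn with -1.48. These differences were not rescaled, and 1 read of Rab3b or Cadps2 was worth far more TPM than 1 read of Cadps. Their sizes are therefore not compared between genes. Cadps and Cadps2 encode the CAPS priming factors and Ptprn the vesicle membrane protein IA-2. Rab3b was detected in 18 of 28 LOCs and 6 of 52 pLSOs, but also in 1 of 8 controls, with means of 2675, 79.6 and 844 TPM. Cadps was detected in 21 LOCs, 20 pLSOs and 3 controls, with means of 14.0, 2.83 and 13.5 TPM. Cadps2 was in 16 LOCs, 2 pLSOs and 0 controls, and Ptprn in 11 LOCs, 12 pLSOs and 0 controls. The other 16 genes differed by less than 2-fold, among them Syt4 (0.82), Rab3a (0.68), Kif1a (0.67) and Rab3c (-0.20).

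**Figure D3:**
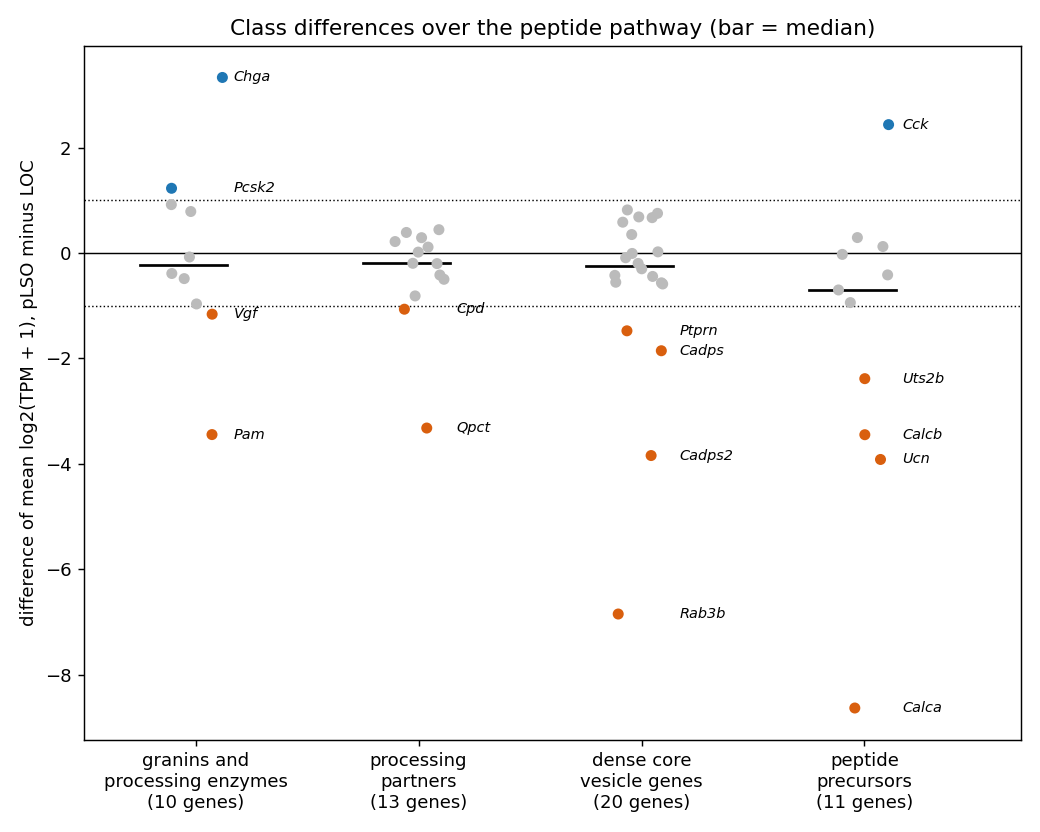
Difference of mean log2(TPM + 1) between pLSOs and LOCs for the genes of 4 lists detected in at least 5% of neurons, with 1 point per gene, a bar at the median of each list and dotted lines at 2-fold. Blue points (Chga, Pcsk2, Cck) are higher in pLSOs, orange points are higher in LOCs down to Calca at -8.63, and gray points differ by less than 2-fold.

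From neuron to neuron, the levels of most pairs of genes showed little relation. Over 45 pairs of the 10 genes, Spearman's rho ran from -0.19 to 0.30 with a median of 0.00 in 52 pLSOs and from -0.59 to 0.53 with a median of 0.04 in 28 LOCs. The points of such a correlation share the library and its depth and include many zeros. The lowest values in LOCs were those of Pam with Chgb (-0.59) and with Chga (-0.54), and the highest was that of Scg2 with Chgb (0.53). Without cell_57 and cell_76 the same 3 values were -0.51, -0.49 and 0.44 over 26 LOCs. Of the 5 LOCs with Chga at 34 TPM or more, the Pam levels were 98 TPM in cell_69, 79 TPM in cell_72, 8 TPM in cell_74, 0 TPM in cell_76 and 63 TPM in cell_82, all under the median of LOCs. Pam also ran against the summed astrocyte markers in LOCs, with a rho of -0.60 over 28 and -0.57 over 26 neurons, and against the number of detected genes (-0.49 over 28), and their part in these values was not tested. That sum was not rescaled, and Aldoc had the highest mean of its markers in LOCs, at 1453 TPM.

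**Figure D4:**
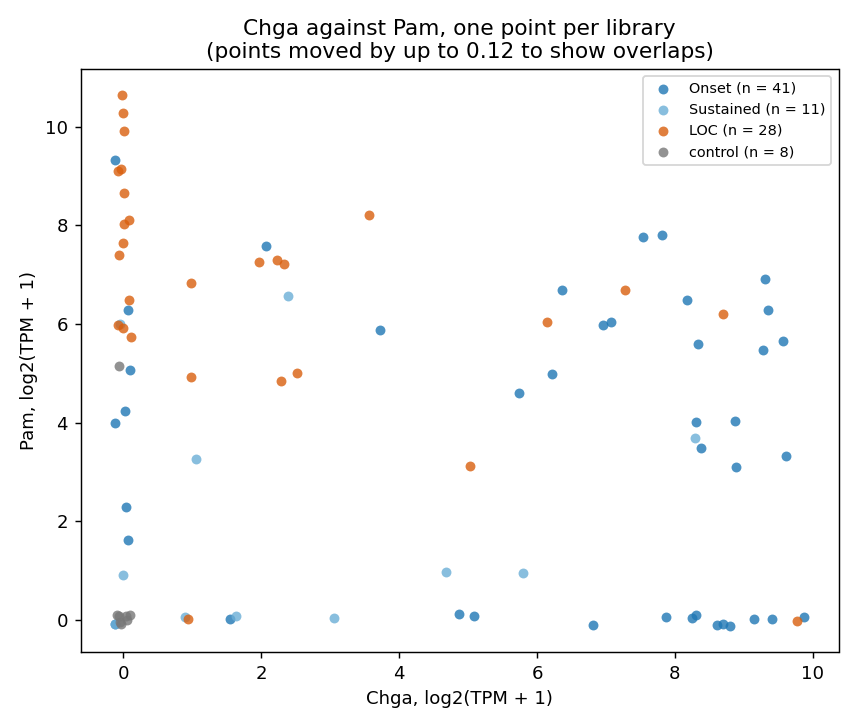
Level of Chga (horizontal axis) against Pam (vertical axis), both as log2(TPM + 1), with 1 point per library in the 3 firing patterns and the controls. Onset neurons extend to the right, up to 971 TPM of Chga, and LOCs extend upward on the left, up to 1626 TPM of Pam; the LOC at the lower right is cell_76, with 927 TPM of Chga and 0 TPM of Pam.

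Across the 80 neurons, the genes most like Pam among 4800 genes that 20% of neurons or more held were Ucn (rho 0.55), Myef2 (0.54) and Col4a3 (0.53), and those most like Chga were Anxa5 (0.52), Lpgat1 (0.51) and Abhd3 (0.51). These values include the difference between the classes. Within 28 LOCs they were 0.29, 0.53 and 0.34 for Pam, and 0.09, 0.08 and 0.36 for Chga. Within 52 pLSOs they were 0.49, 0.44 and 0.37 for Chga, and 0.28 for Pam with Myef2, while Ucn and Col4a3 were detected in 0 pLSOs. For Vgf the first were Acly (0.49), Cadps2 (0.47) and Rasgrf1 (0.47), and for Scg5 they were Tmem59 (0.47), Rab14 (0.41) and Ndfip1 (0.35). The values of Vgf were 0.40, 0.25 and 0.07 within pLSOs and 0.26, 0.36 and 0.41 within LOCs.

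The recorded features of the same neurons were set against the genes as well. Over 112 pairs of 8 genes and 14 features in Onset neurons rho ran from -0.28 to 0.47, and over 126 pairs in LOCs from -0.40 to 0.42. The highest in Onset neurons was Cpe with membrane capacitance (0.47 over 41 neurons), and the highest in LOCs was Vgf with the decay time of spontaneous excitatory currents (0.42 over 28 neurons). They are the extremes of many pairs and are given as a description only.

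Promoters are shown because Scg2 and Chgb formed the most alike pair in LOCs and because Pcsk1 was high in only 3 of them. The rho of Scg2 with Chgb was 0.53 in LOCs, the highest of 45 pairs, and -0.10 in pLSOs. RefSeq promoter windows (GRCm38.p6, 250 bases before to 50 after each annotated start) were at hand for 8 of the 10 genes, not for Vgf and Cpe. They were searched on both strands for the cAMP response element TGACGTCA and for its part TGACG. Each line below gives the 110 bases before the start, 5′ to 3′ on the strand of the gene, with the element or its part in capitals.
Scg2 (chr1:79440027-79440136, minus strand): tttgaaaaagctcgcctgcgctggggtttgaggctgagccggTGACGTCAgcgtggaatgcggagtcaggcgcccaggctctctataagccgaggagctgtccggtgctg
Chgb (chr2:132781532-132781641, plus strand): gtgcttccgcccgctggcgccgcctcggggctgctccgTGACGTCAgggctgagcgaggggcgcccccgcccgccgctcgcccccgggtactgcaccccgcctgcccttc
Pcsk1 (chr13:75089747-75089856, plus strand): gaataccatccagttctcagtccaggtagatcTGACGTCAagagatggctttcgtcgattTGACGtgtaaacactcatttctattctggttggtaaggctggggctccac
Chga (chr12:102554831-102554940, plus strand): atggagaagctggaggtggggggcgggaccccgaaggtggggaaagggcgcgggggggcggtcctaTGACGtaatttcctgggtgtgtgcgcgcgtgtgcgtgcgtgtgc
The full element starts 68 bases before the RefSeq start of Scg2, 72 before that of Chgb and 78 before that of Pcsk1. Gencode vM21 starts Scg2 at 79440120 and Chgb at 132781278, so that their elements lie within the Gencode genes. It starts Pcsk1 at 75089826, after the element. These are 3 of 8 genes with a window and 3 of their 9 windows, since Pam has more than 1. Of all 32851 windows, 1.79% hold it, whereas 20.8% hold the part TGACG on either strand. The windows of Chga, Scg3, Scg5 and Pcsk2 hold the part without the full element, and those of Pam hold neither. The genes with the full element had class differences of 0.79 (Scg2), 0.92 (Chgb) and -0.97 (Pcsk1), all under 2-fold. A part of the element in the levels was not tested.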

How the data were processed

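The score values are TPM that the authors deposited as whole numbers per gene and library. Per the labels and methods they trimmed reads with Trim Galore 0.4.2, aligned them with STAR to mm10, marked duplicates with Picard 1.115 and counted genes with featureCounts. Names and lengths came from Gencode vM21 on GRCm38, and promoters from RefSeq. The smallest steps between values followed the gene lengths sorted by size in the order of the table, not the own length of each gene, and reads were estimated from these lengths. Of 7156 low values, 79.7% lay within 0.25 of 1 or 2 reads.

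Class values are differences in the mean of log2(TPM + 1), pLSOs minus LOCs, over genes detected (1 TPM or more) in at least 5% of 80 neurons. A difference of 1 (2-fold) was the mark, and no test was made because labels name no animals. The 10 genes, the left-out libraries and all lists were chosen with earlier results of these data known, and cell_57 and cell_76 were set apart after their values were seen, by holding fewer than 2 LOC markers. All 10 genes are named, with the 4 list genes of largest difference in each direction past 2-fold and the 3 most alike genes. Pcsk1n, the markers, Syt4, Rab3a, Kif1a and Rab3c were named after their values were seen. One marker gene is not reported here. Scripts were tested on simulated data and ran in Python 3.11.15 with pandas 2.3.3, NumPy 2.4.6, SciPy 1.17.1 and matplotlib 3.10.9.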

Additional observations from a re-analysis of the deposited data

Results flagged for a closer look

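In each of 5 genes, 1 of the 8 negative controls lay far above the others in TPM. These values were 1 TPM of Vgf, 186 TPM of Chgb, 183 TPM of Pcsk2, 1352 TPM of Cpe and 37 TPM of Pam. In estimated reads, the controls held at most 1.54 of Vgf, 2.13 of Chgb and 1.07 of Pam, against 73.7 of Pcsk2 and 263 of Cpe. The 186 TPM of Chgb in NC3 stood for 1.04 reads, fewer than the 2.13 reads behind 5 TPM in NC8. The mark used is set to pass by chance in about 1 in 20 groups of normally spread values. These groups are not of that kind, since a group with all other libraries at 0 is marked by any single value. The highest values came from different controls, with Cpe and Pam from NC9, Chgb from NC3, Pcsk2 from NC4 and Vgf from NC8.

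Libraries outside the comparisons also held the genes above the median of the controls, 1.5 of 10. NC6, labelled as a negative control, held 6 of the 10 genes, among them Chga at 289 TPM, Scg5 at 210 TPM and Pam at 18 TPM. NC5, also labelled as a negative control, held Pam only, at 440 TPM. Of the left-out neurons, cell_39 and cell_40 (Onset) held 4 each, and cell_54 (Sustained), cell_78 and cell_85 (LOC) held 5 each. In cell_54, labelled Sustained, Pam was at 223 TPM, Vgf at 18 TPM and Chga at 0 TPM. The Onset neuron cell_36 held 0 of the 10 genes.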

How the results depend on the processing

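Chga stayed higher in pLSOs and Pam higher in LOCs by 2-fold or more under all 11 alternatives, with differences from 1.89 to 4.36 and from -4.43 to -2.26. Vgf kept 2-fold under 8 and Pcsk2 under 8 of the 11, and Scg3, Scg5 and Cpe changed sign under at least 1, never past 2-fold. The number of genes higher in pLSOs, 2 as reported, was 4 with a pseudocount of 0.1, after rescaling to own exonic length and in estimated reads scaled to a common library total, and 1 with a pseudocount of 10, by the ratio of arithmetic means and in neurons with low oligodendrocyte markers. The number higher in LOCs, also 2, was 1 with all 86 neurons by label (Vgf then at -0.95), with a pseudocount of 10 and in neurons with at least 2000 detected genes. It was 3 (Vgf, Pcsk1, Pam) under 5 of the 11, namely a pseudocount of 0.1, the ratio of arithmetic means, Onset neurons alone, low oligodendrocyte markers and without cell_57 and cell_76. The share of all genes tested past 2-fold moved as well, from 2.14% to 30.9% higher in pLSOs and from 1.59% to 21.9% higher in LOCs, lowest with a pseudocount of 10 and highest by the ratio of arithmetic means. With detection at 10 TPM the median number of genes per pLSO was 4 in place of 5.5. The cause of these shifts was not tested. The estimated reads, oligodendrocyte and cell_57 and cell_76 alternatives were chosen after seeing the data. No paired analysis was possible because the results come from no test. Depth limits Vgf, Scg2, Scg3 and Cpe, whose single reads are rounded to 0 TPM, and faint values of Chga, Pcsk1 and Scg5, where 1 read gives 1 TPM or more.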
